A study of Mus musculus with 16 samples.

Results

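Smooth muscle contraction genes and the oxytocin receptor gene Oxtr were followed through 4 populations of sorted mouse mammary epithelial cells with and without Cpeb2. The set was chosen by name: the actins Acta2 and Actg2, the myosin heavy chain Myh11, the kinase Mylk, the thin filament genes Cnn1, Tpm2 and Lmod1, the receptor Oxtr, and the transcription genes Srf and Myocd. All 10 genes were on the array, with 20 probe sets (groups of short probes that report on a transcript) among 45141. Each gene was read from its probe set with the highest mean over the 16 arrays, and the 10 genes were tested together with all 17097 named genes.

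RNA was measured in cells of 4 female mice aged 10 weeks (strain C57BL/6J 129, line DMI), 2 Cpeb2 -/- (knockout) and 2 Cpeb2 +/+ (wild type), all of them Sox2-Cre +/+. CPEB2 is a protein that binds messenger RNAs and acts on their translation, and the study's title asks about its part in mammary development and RANKL. Sox2-Cre is known to be active throughout the early embryo, so the deletion is not confined to the sorted cells, and the controls carry the Cre too. Each mouse gave all 4 populations, which makes 2 arrays per genotype and population. Myoepithelial cells were sorted as Epcam low and CD49f high. Luminal cells, Epcam high and CD49f low, were divided by Sca1 and CD49b: ductal progenitors carried both, non-clonogenic luminal cells Sca1 alone and alveolar progenitors CD49b alone. Mouse 1 of each genotype had the same parents, and mouse 2 of each genotype had the same other parents.

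The values are log2 expression, and differences are log2 with the standard error of a limma fit to all 16 arrays. A gene counts as called where its p, adjusted by Benjamini-Hochberg over the 17097 genes, was under 0.05. Array medians lay between 6.35 and 6.40, replicate arrays correlated at r = 0.975 to 0.991, and the number of arrays limits the precision. Cpeb2 itself was lower in the knockout by a mean log2 difference of -0.92 ± 0.21 (adjusted p = 0.0201), and by -0.74 ± 0.41 in myoepithelial cells alone, where it was not called (adjusted p = 0.449). All 6 measured myoepithelial markers, among them Krt5, Krt14 and Trp63, were called higher in myoepithelial cells (23.5% of all genes). All 7 luminal markers were called lower (24.4% of all genes). These lists include Itga6, the gene of CD49f, and Epcam, whose products were used for the sort, so their direction was set by it.

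Myoepithelial cells form the outer layer of the mammary ducts and alveoli and contract around them. When oxytocin binds its receptor, calcium rises in the cell, calmodulin activates myosin light chain kinase (the product of Mylk), and phosphorylated myosin pulls on actin filaments to eject milk. In smooth muscle, many genes of this apparatus are switched on by serum response factor (SRF) together with myocardin (Myocd) or the related cofactors MRTFA and MRTFB, through a short element called the CArG box.

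RefSeq promoter windows of build GRCm38.p6 were at hand for 7 of the 10 genes. The 250 bases before each start were searched for the CArG box, which is palindromic, so that a match counts for both strands. A perfect box was present in 1.47% of 32851 windows of all genes, and a box with at most 1 mismatch in 18.6%. Srf held 2 perfect boxes, 82 and 62 bases before the start, and 1 with 1 mismatch at 39. Acta2 held 2 boxes with 1 mismatch each, 84 and 34 bases before the start, and Lmod1 held 2 of that kind, at 189 and 164. The 250 bases of Tpm2, Oxtr, Cnn1 and Mylk held none of these letters within 1 mismatch, which says nothing about elements elsewhere. A match is a run of letters and not a measured binding site. The stretches are written 5′ to 3′ on the gene's strand with the boxes in capitals: Srf at chr17:46556182-46556254 (minus strand), Acta2 at chr19:34255388-34255467 (minus strand) and Lmod1 at chr1:135324614-135324668 (plus strand).
Srf: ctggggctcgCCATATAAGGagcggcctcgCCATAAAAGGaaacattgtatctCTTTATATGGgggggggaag
Acta2: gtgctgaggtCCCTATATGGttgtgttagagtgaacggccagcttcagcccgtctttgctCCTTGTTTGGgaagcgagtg
Lmod1: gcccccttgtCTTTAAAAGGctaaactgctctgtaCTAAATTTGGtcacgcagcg

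All 10 genes were called higher in myoepithelial cells than in the mean of the 3 luminal populations, against 23.5% of all genes called in that direction. The median difference of the 10 genes was 4.99, and that of all genes was 0.02. Of 17097 genes ordered by this difference, Mylk ranked 2, Myh11 4, Actg2 8, Tpm2 15, Acta2 18, Cnn1 26 and Oxtr 38. Lmod1 ranked 587, Srf 805 and Myocd 3330. These are known myoepithelial genes chosen with earlier results of these data at hand, so the ranks are a description of the measured differences. Several of the luminal values behind them are near background, as given below, and the order among such genes is not settled. In sorted bulk cells, more cells that contain an RNA and more of it per cell cannot be told apart.

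Among the actins, Acta2 encodes alpha smooth muscle actin, the usual stain for myoepithelium. Its myoepithelial values were 13.04 and 12.94 in wild-type mice 1 and 2 and 12.76 and 12.88 in knockout mice 1 and 2. All 12 luminal values lay far below, from 7.16 in non-clonogenic luminal cells to 8.29 in alveolar progenitors. The difference was 5.12 ± 0.10, a 34.7-fold higher signal (adjusted p = 1.33e-12). Actg2, gamma smooth muscle actin, read 10.36 and 11.06 in wild-type and 10.07 and 10.36 in knockout myoepithelial cells. Its luminal arrays all lay between 4.49 and 4.95, and the difference was 5.72 ± 0.10 (adjusted p = 1.07e-12). The 4 myoepithelial arrays were spread more widely for Actg2 (SD 0.42, n = 4) than for Acta2 (SD 0.12, n = 4), mostly through wild-type mouse 2.

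Myosin followed the actins. Myh11, the smooth muscle myosin heavy chain, read 12.52 and 12.28 in wild-type and 12.36 and 12.43 in knockout myoepithelial cells. Its luminal values ran from 5.69 to 6.96, with the 4 alveolar arrays on top, and the difference was 6.05 ± 0.10 (adjusted p = 7.05e-13). Mylk, the kinase that phosphorylates the myosin light chain, had a measured difference of 6.80 ± 0.08 (adjusted p = 1.11e-13). Its myoepithelial arrays read 12.56 and 12.37 in wild type and 12.42 and 12.32 in knockout, and its luminal arrays lay between 5.38 and 5.89. The signal step depended on the probe set: the other sets gave 3.69 ± 0.13 for Myh11 and 3.94 ± 0.10 and 5.25 ± 0.09 for Mylk, each called in a fit to all probe sets.

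The thin filament genes split. Cnn1, or calponin 1, an actin-binding protein that restrains the myosin motor, read 11.03 and 11.19 in wild-type and 10.44 and 10.26 in knockout myoepithelial cells. Its luminal arrays lay between 5.52 and 5.99, which gave a difference of 4.87 ± 0.08 (adjusted p = 7.05e-13). Tpm2, beta tropomyosin, lies along the actin filament. Its 4 myoepithelial arrays were nearly equal, from 12.16 to 12.23, while the 12 luminal arrays spread from 5.19 to 9.56. The difference was 5.40 with a standard error of 0.33 (adjusted p = 5.76e-08), against 0.08 to 0.10 for the other 6 genes with a large step. Lmod1, leiomodin 1, which starts new actin filaments in smooth muscle, read 7.61 and 7.49 in wild-type and 7.78 and 7.69 in knockout myoepithelial cells, above all 12 luminal arrays (5.86 to 6.34). Its difference was 1.5 ± 0.07, or 2.83-fold (adjusted p = 2.89e-09).

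Oxtr, the receptor through which oxytocin triggers contraction, read 10.83 and 10.86 in wild-type and 10.64 and 10.37 in knockout myoepithelial cells. The luminal arrays lay between 5.29 and 7.58 and were not uniform, as described below. The measured difference was 4.54 ± 0.10 (adjusted p = 7.83e-12). The other Oxtr probe set gave 2.50 ± 0.08 (adjusted p = 1.83e-10 in the fit to all probe sets).

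The 2 transcription genes did not share this step. Srf was bright in every array. Its myoepithelial values were 11.23 and 10.94 in wild type and 11.22 and 11.32 in knockout, and its luminal values ran from 8.93 to 11.20, so that the populations overlapped. The difference was 1.21 ± 0.20, or 2.31-fold (adjusted p = 3.12e-04). The second Srf probe set gave a smaller difference, 0.49 ± 0.15 (adjusted p = 0.017 in the limma fit to all probe sets). Myocd, the smooth muscle cofactor of SRF, read 5.09 and 5.28 in wild-type and 5.12 and 5.0 in knockout myoepithelial cells, and from 4.73 to 4.99 in luminal cells. Its difference of 0.25 ± 0.05 was called (adjusted p = 0.00107), but the values are those of unexpressed genes. As a guide to such values, the 95th percentile of 41 olfactory receptor genes, which epithelium is not known to use, lay between 6.04 and 6.39 in the arrays. Myocd was under it in all 16 arrays. Without knockout mouse 1 the Myocd difference was 0.21 (adjusted p = 0.0566).

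By the same guide, the probe sets used for Actg2, Mylk and Cnn1 were below the olfactory percentile in all 12 luminal arrays, so the sizes of their differences are not exact. A second Mylk probe set, the one with the step of 3.94, read up to 6.53 in luminal arrays, above the guide. Acta2 and Srf were above it in all 12. Tpm2 was above it in 9, Myh11 in 8, Lmod1 in 6 and Oxtr in 5, of which 4 were the alveolar arrays and 1 a ductal array. The Oxtr differences against non-clonogenic luminal cells and ductal progenitors are thus measured against values mostly not above the guide. Probe sets differ in brightness at the same RNA level, so no level is compared between genes here.

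**Figure D1:**
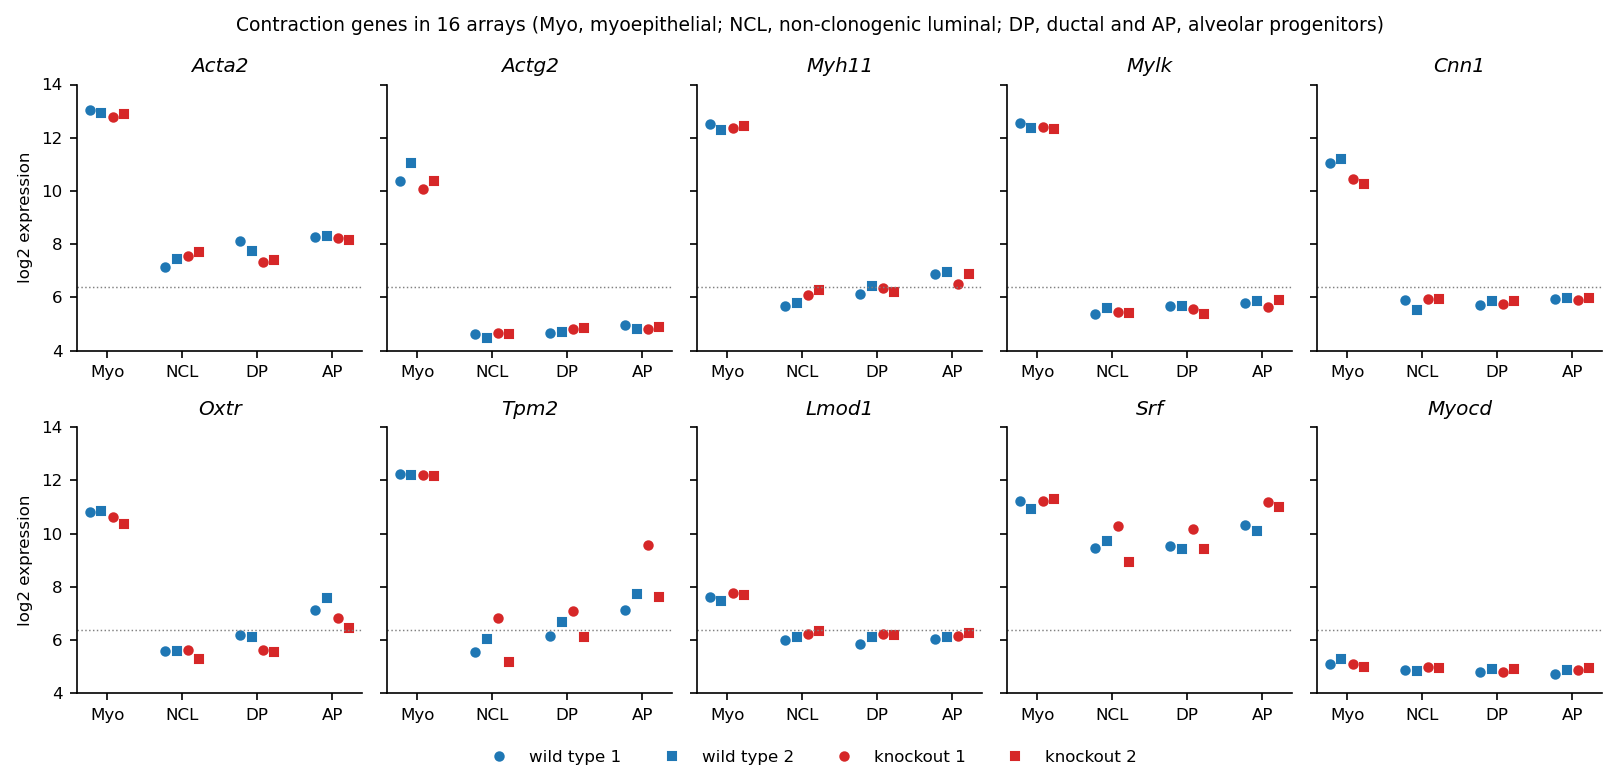
Log2 expression of the 10 genes (vertical axis) in 16 arrays, grouped by population, with 1 point per mouse (blue wild type, red knockout; circles mouse 1, squares mouse 2) and a dotted line at 6.39, the highest 95th percentile of the olfactory receptor genes. The myoepithelial points lie far above the luminal points for 7 genes, slightly above for Lmod1, overlap for Srf, and stay under the line for Myocd.

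Each luminal population was also set against the myoepithelial cells. All 10 genes were called higher in myoepithelial than in non-clonogenic luminal cells (21.3% of all genes) and than in ductal progenitors (20.3% of all genes). Against alveolar progenitors 9 were called (18.2% of all genes). The exception was Srf, with a difference of 0.52 ± 0.24 (adjusted p = 0.12), against 1.57 ± 0.24 for non-clonogenic luminal cells and 1.54 ± 0.24 for ductal progenitors. For Oxtr the step to alveolar progenitors, whose 4 arrays were above the olfactory percentile, was 3.68 ± 0.13, or 12.8-fold. The measured step to non-clonogenic luminal cells, none of whose arrays were above it, was 5.15 ± 0.13.

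Within the luminal layer, alveolar progenitors carried more signal for several of the genes. They were called higher than non-clonogenic luminal cells for 6 genes (12.6% of all genes in that direction) and higher than ductal progenitors for 5 (10.7% of all genes). Non-clonogenic luminal cells and ductal progenitors differed in 0 of the 10 genes by limma (0.795% of all genes, either direction), with 2 at an unadjusted p under 0.05. Counted against both other populations, 0 of the 10 were called lower in the alveolar cells, where 15.9% of all genes were called lower than in non-clonogenic luminal cells and 11.3% lower than in ductal progenitors. Fibroblast markers also differed between the 2 progenitor populations: 4 of 7 were called higher in ductal than in alveolar cells, with a median of 1.44 over the 7. Actb probe sets at the 3′ end minus those in the middle of the transcript, a sign of RNA quality, gave -0.04 to 0.04 in alveolar arrays. The same measure was 0.05 to 0.27 in ductal and 0.03 to 0.39 in non-clonogenic luminal arrays. For Gapdh the populations overlapped. The part of fibroblast markers in the ductal comparisons, and of RNA quality in all of these, was not tested.

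Among the genes called against both other populations, Oxtr kept its calls in the most alternative fits. Its alveolar values were 7.14 and 7.58 in wild type and 6.82 and 6.46 in knockout, its ductal values 6.18 and 6.12 in wild type and 5.64 and 5.56 in knockout, and its non-clonogenic luminal values 5.60 and 5.60 in wild type and 5.63 and 5.29 in knockout. As with Acta2, Myh11 and Tpm2, the alveolar arrays of Oxtr did not overlap either of the other populations. The share of all genes without such overlap was not counted. In each mouse the alveolar array of Oxtr was the highest luminal one, again as with those genes. The alveolar level exceeded the ductal level by a log2 difference of -1.12 ± 0.13, written ductal minus alveolar (adjusted p = 4.33e-05), and the non-clonogenic level by -1.47 ± 0.13 on the same footing (adjusted p = 2.78e-06). The other Oxtr probe set gave -0.54 ± 0.09 and -0.55 ± 0.09, both called in the fit to all probe sets. This Oxtr difference was called in all 30 alternative fits for each of the 2 comparisons.

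Srf was called higher in alveolar progenitors as well, by -1.02 ± 0.24 as ductal minus alveolar (adjusted p = 0.00954) and by -1.05 ± 0.24 as non-clonogenic luminal minus alveolar (adjusted p = 0.00596). The second Srf probe set gave -0.64 ± 0.18 and -0.56 ± 0.18, both called in the fit to all probe sets. On the probe set used, the alveolar values of Srf were 10.34 and 10.11 in wild type and 11.20 and 11.0 in knockout. The ductal values were 9.55 and 9.44 in wild type and 10.16 and 9.42 in knockout, and the non-clonogenic values 9.46 and 9.73 in wild type and 10.30 and 8.93 in knockout. The knockout alveolar arrays lay within the range of the myoepithelial arrays, and the wild-type ones lay below it. The ductal difference was no longer called without wild-type mouse 1 (adjusted p = 0.0801), without wild-type mouse 2 (0.0668) or without the ductal array of knockout mouse 2 (0.05, rounded). The non-clonogenic difference was lost without wild-type mouse 1 (adjusted p = 0.0837). With wild-type arrays only, the differences were -0.73 against ductal (adjusted p = 0.0843) and -0.63 against non-clonogenic luminal cells (adjusted p = 0.0939), neither of them called.

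Tpm2 had the largest alveolar excess and the largest spread. Its alveolar values were 7.14 and 7.74 in wild type and 9.56 and 7.64 in knockout. The ductal values were 6.16 and 6.69 in wild type and 7.09 and 6.11 in knockout, and the non-clonogenic values 5.55 and 6.03 in wild type and 6.83 and 5.19 in knockout. Within each mouse the order was alveolar, ductal, non-clonogenic. The difference was -1.51 ± 0.40 as ductal minus alveolar (adjusted p = 0.0181) and -2.12 ± 0.40 as non-clonogenic luminal minus alveolar (adjusted p = 0.00166). Without the alveolar array of knockout mouse 1 these became -1.04 (adjusted p = 0.0833) and -1.65 (adjusted p = 0.00721). The ductal call was also lost without wild-type mouse 1 (0.0972), wild-type mouse 2 (0.105), the ductal array of wild-type mouse 1 (0.0605) or of knockout mouse 2 (0.0834), or the alveolar array of wild-type mouse 2 (0.0659).

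Knockout mouse 1 was the highest of the 4 mice for both Tpm2 and Srf in all 3 luminal populations, and in none of these was it the highest for Acta2. Its alveolar Tpm2 value stood apart on all 4 Tpm2 probe sets, at 9.56, 9.38, 8.67 and 9.09, where the other 3 alveolar arrays reached at most 7.74, 7.54, 6.98 and 6.79. Among the myoepithelial markers of the same array, Krt5 read 7.70, against 7.68 in knockout mouse 2 and 8.39 and 8.24 in wild type, and Trp63 read 6.32, against 6.28 in knockout mouse 2 and 6.67 and 6.57 in wild type. Krt5 and Trp63 were alike in both knockout mice. Krt14 was highest in the array in which Tpm2 was high, at 7.42, against 6.95 to 7.35 in the other 3 alveolar arrays. Cdh3 read 6.40 in that array, against 6.39 to 6.58 in the other 3. The part of these markers in the Tpm2 value was not tested. Over the 12 luminal arrays Tpm2 and Srf correlated at r = 0.894, a description only, since the arrays come from 4 mice and fall into 3 populations.

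**Figure D2:**
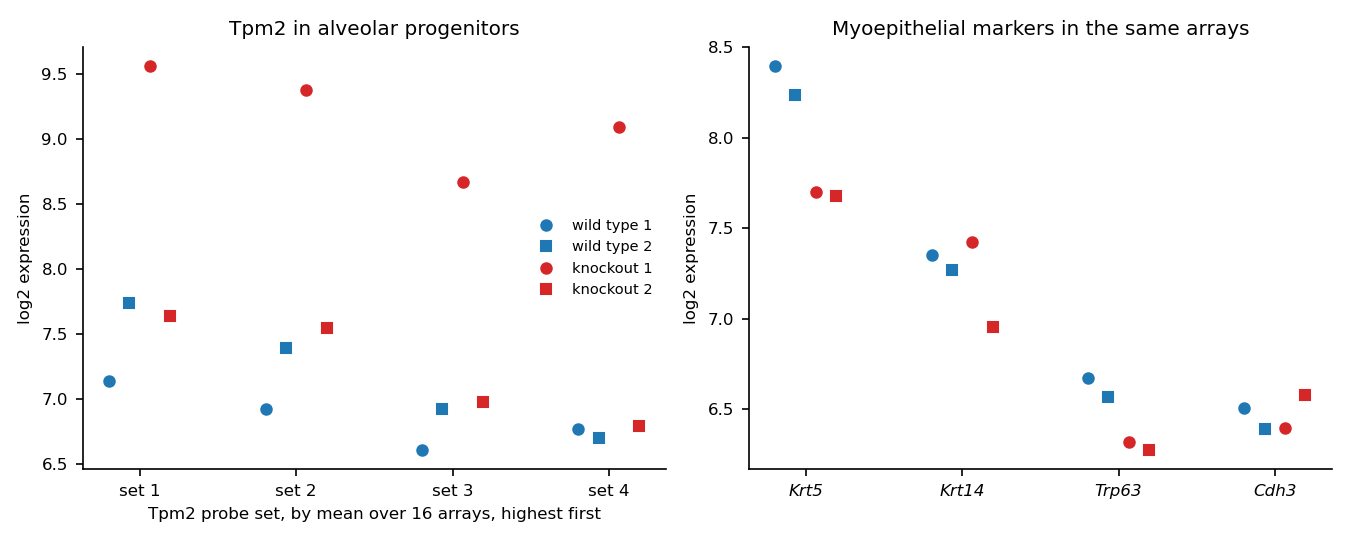
Log2 expression in the 4 alveolar progenitor arrays (blue wild type, red knockout; circles mouse 1, squares mouse 2), with the 4 Tpm2 probe sets on the left and the myoepithelial markers Krt5, Krt14, Trp63 and Cdh3 on the right. Knockout mouse 1 is the highest array on every Tpm2 probe set, at 8.67 to 9.56, and for Krt14, at 7.42. Both knockout arrays lie below both wild-type arrays for Krt5 and Trp63.

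Acta2 and Myh11 rose in alveolar progenitors by less. For Acta2 the alveolar values, 8.15 to 8.29, were close together, and the differences were -0.57 ± 0.12 as ductal minus alveolar (adjusted p = 0.0034) and -0.76 ± 0.12 as non-clonogenic luminal minus alveolar (adjusted p = 3.25e-04). The second Acta2 probe set gave -0.56 ± 0.16 and -0.72 ± 0.16, both called in the fit to all probe sets. The ductal call of Acta2 was lost without knockout mouse 1 (adjusted p = 0.132) or knockout mouse 2 (0.0877). For Myh11 the differences were -0.54 ± 0.12 (adjusted p = 0.00656) and -0.85 ± 0.12 (adjusted p = 1.95e-04), but its second probe set gave 0.07 ± 0.16 and 0.11 ± 0.16 and was not called. The ductal call of Myh11 was lost without knockout mouse 2 (adjusted p = 0.221). Mylk was called against non-clonogenic luminal cells alone (-0.34 ± 0.10, adjusted p = 0.0226), at values under the olfactory percentile. Its other 2 probe sets gave 0.17 ± 0.12 and -0.13 ± 0.11, not called, and its call was lost in 8 of the 20 fits that left out a mouse or an array, where the adjusted p ran from 0.0533 to 0.327.

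Of the 6 measured myoepithelial markers, 3 were also called higher in alveolar than in non-clonogenic luminal cells: Krt5 (-0.68), Krt14 (-0.79) and Trp63 (-0.49). The signal of all 6 markers summed (as a log2 sum) ran from 11.12 to 11.50 in alveolar, 11.26 to 11.55 in non-clonogenic luminal and 11.30 to 11.68 in ductal arrays, against 14.65 to 14.77 in myoepithelial arrays. In luminal arrays Itga6 (10.03 to 10.85) and Itgb4 (9.03 to 10.01) made up most of this sum. There Krt5, Krt14, Trp63 and Cdh3 reached at most 8.39, so the sum says little about them. The part of the myoepithelial markers in the alveolar values was not tested. As a description, chosen after the values were seen, each gene's alveolar signal on the linear scale was placed between its non-clonogenic luminal and its myoepithelial signal in the same mouse. The alveolar signal stood 4.65% of the way up for Oxtr (median of 4 mice, 3.80% to 7.93%), 3.37% for Tpm2 (1.97% to 13.8%) and 1.72% for Acta2 (0.999% to 2.03%). It stood 1.13% of the way up for Krt14 (0.468% to 1.48%), 1.13% for Krt5 (-0.084% to 2.43%), 0.946% for Myh11 and 0.601% for Trp63. Actg2, Mylk and Cnn1, on probe sets with no luminal array above the olfactory percentile, stood at 0.343%, 0.204% and 0.114%. The other 3 myoepithelial markers stood below the non-clonogenic level, with medians of -0.563% for Cdh3, -4.21% for Itgb4 and -29.0% for Itga6. Oxtr was above Krt5, Krt14, Trp63 and Cdh3 in each of the 4 mice, and below Itgb4 in wild-type mouse 1 (8.65%). For Srf the position was 54.9% (23.1% to 97.3%) on the probe set used, and its second probe set was not placed.

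**Figure D3:**
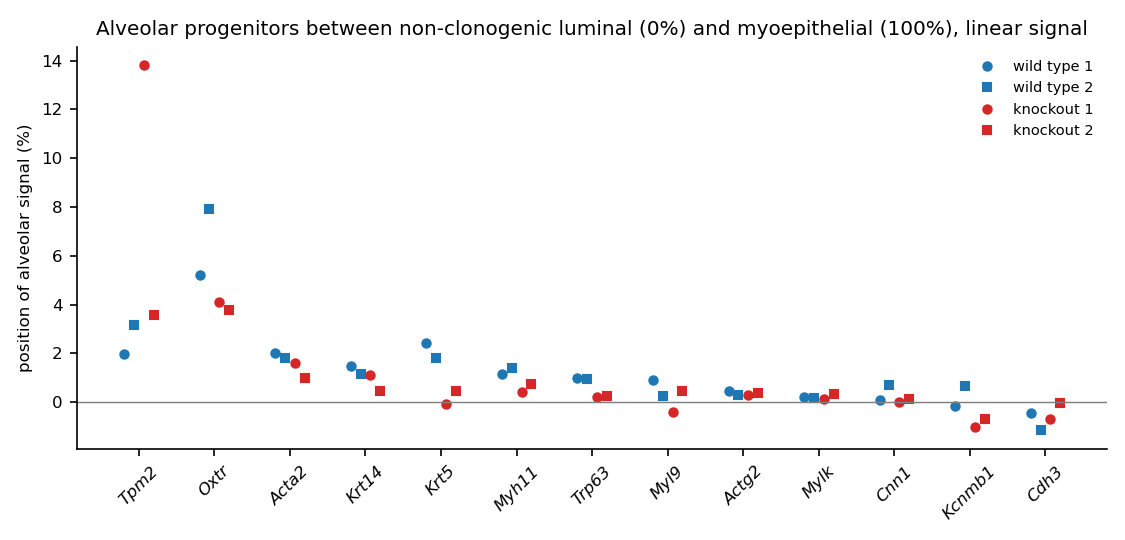
Position of the alveolar progenitor signal between the non-clonogenic luminal and the myoepithelial signal of the same mouse, in percent of that distance on the linear scale (vertical axis), with 1 point per mouse, for 7 contraction genes and for Krt14, Krt5, Trp63, Cdh3, Myl9 and Kcnmb1. Oxtr lies at 3.80% to 7.93% and Tpm2 at 1.97% to 13.8%, while Actg2, Mylk and Cnn1 stay under 1%.

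The 7 genes with the large myoepithelial step correlated with each other at r = 0.925 to 0.997 over the 16 arrays (21 pairs), a range set by the step itself. Over the 12 luminal arrays the same pairs ran from 0.15 to 0.850. The 5 genes whose values were most like those of Acta2 over the 16 arrays were Myh11 (r = 0.995), Hgf (0.995), Ptpre (0.994), Kctd4 (0.994) and Krt14 (0.994). For Oxtr they were Ripor2 (r = 0.992), Col4a2 (0.990), Schip1 (0.990), Nebl (0.989) and Apobec1 (0.987). These correlations are descriptions over arrays that share mice and fall into 2 separate blocks of values.

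Other genes of contraction were taken from lists chosen with earlier results of these data known. Of 23 further genes of the contractile apparatus, 19 were measured, and 15 were called higher and 2 lower in myoepithelial cells (median 0.96, against 0.02 over all genes). Over all genes 23.5% were called higher and 24.4% lower. The regulatory myosin light chain Myl9 differed by 4.82, the actin and myosin binding protein caldesmon (Cald1) by 2.88, filamin A (Flna) by 2.69 and the scaffold Pdlim7 by 2.22. Myl9 was the 1 gene of these 19 whose difference lay in the range of the 7 chosen genes with a large step. Of the 14 genes that control myosin phosphorylation, 11 were measured, with 4 called higher, 1 lower and a median of -0.09. The higher ones were the kinase Prkg1 (2.91), the phosphatase inhibitor Ppp1r14a (1.86) and the phosphatase targeting subunits Ppp1r12a (1.33) and Ppp1r12b (0.97).

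Oxytocin and calcium signalling was mixed, with 16 of 20 genes measured and a median of 0.16. Of the 16, 7 were called higher and 6 lower, where 23.5% of all genes were called higher and 24.4% lower. The 4 largest rises were in Kcnmb1 (3.27), a subunit of the calcium-activated potassium channel, the calcium pump Atp2a2 (2.11), the calcium channel Cacna1c (1.59) and Kcnma1 (1.39), the pore of that potassium channel. Calcium release and entry genes of the same list went both ways. The inositol trisphosphate receptors Itpr2 (-1.25) and Itpr3 (-0.71) and the channel Orai1 (-0.52) were called lower. The calcium entry gene Stim1 (1.26), like the channel Cacna1c, was called higher. Of 10 cofactors and repressors of SRF, 9 were measured, with 5 called higher and 2 lower (median 0.55). Fhl2 differed by 2.44, Tead1 by 2.30 and Mrtfa, which carries actin signals to SRF, by 1.39, while Mrtfb was lower (-0.55). Of 8 immediate early genes, several of which are known SRF targets, 3 were called higher and 1 lower in myoepithelial cells. In alveolar progenitors 6 of the 8 were called higher than in non-clonogenic luminal cells (12.6% of all genes) and 3 higher than in ductal progenitors (10.7% of all genes). Egr2 differed most, by -3.11 as non-clonogenic luminal minus alveolar. Of the 19 further contractile genes, 9 were called higher in alveolar than in non-clonogenic luminal cells, against 12.6% of all genes, and 2, Cnn3 and Svil, were called lower, against 15.9%.

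**Figure D4:**
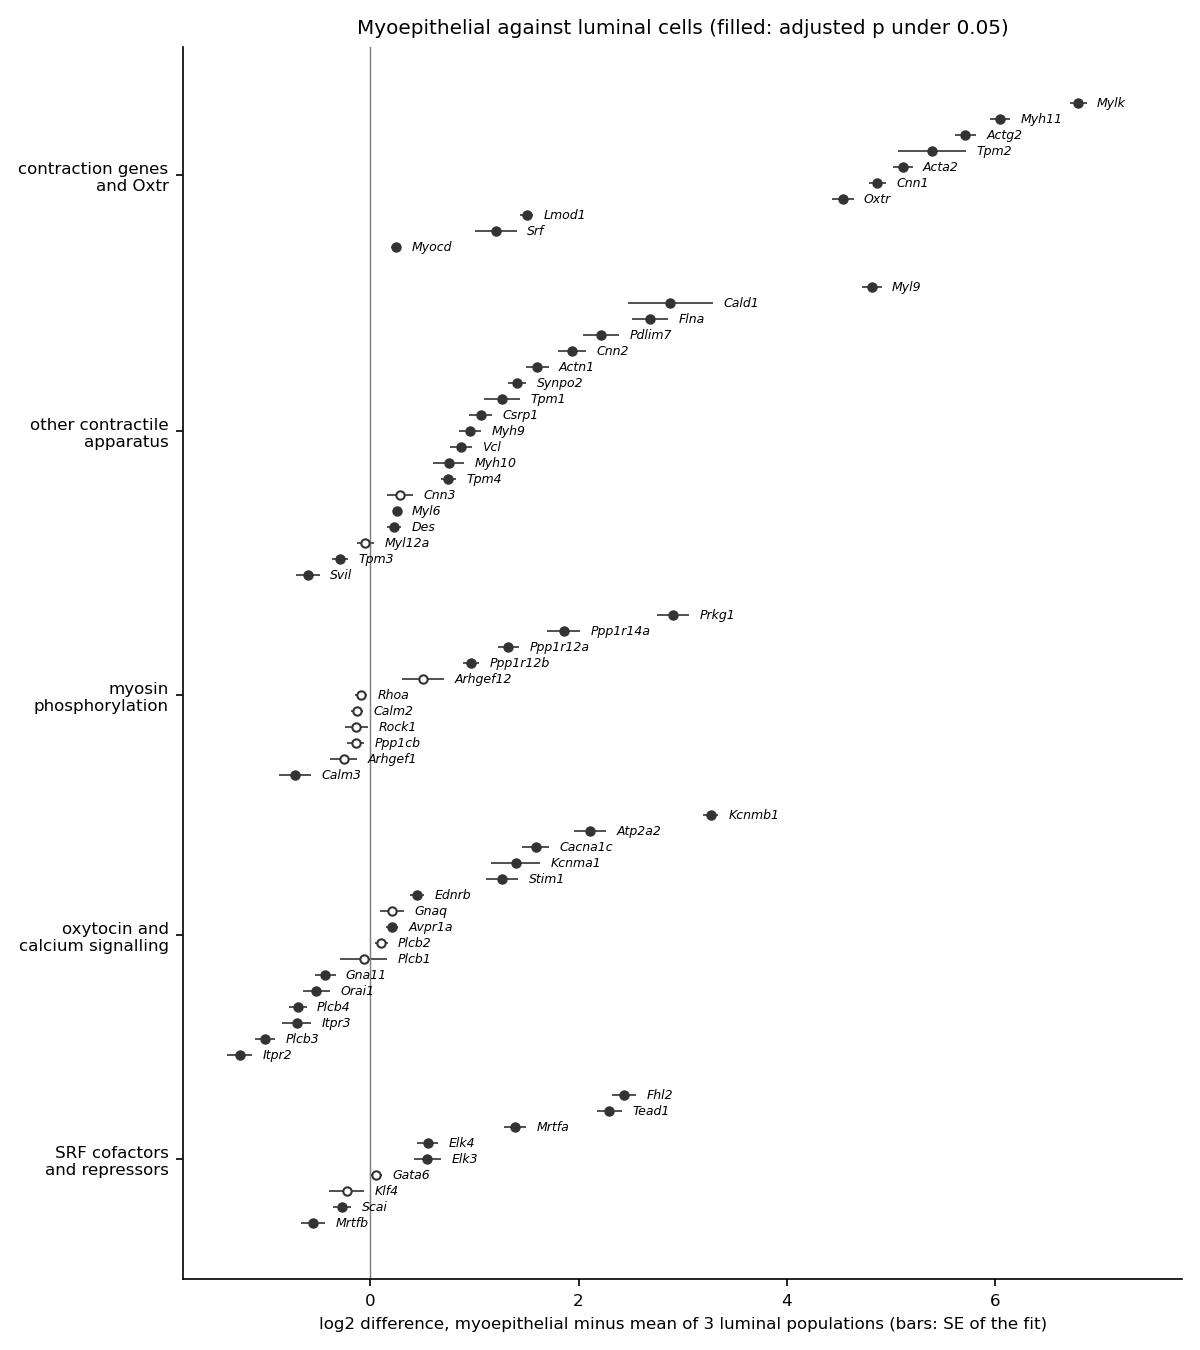
Log2 difference between myoepithelial cells and the mean of the 3 luminal populations (horizontal axis, bars the standard error of the fit) for the 10 genes and 4 further lists, filled where the adjusted p is under 0.05. Among the further genes only Myl9, at 4.82, reaches the range of Oxtr (4.54) and Cnn1 (4.87).

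Markers of other contractile or stromal cells were looked at in the same fit. Of 8 measured pericyte and vascular smooth muscle markers 5 were called higher in myoepithelial cells, led by Rgs5 (1.42) and Mcam (1.04), and Notch3 was lower (-2.73). All 6 endothelial markers were higher, Cdh5 by 1.93. Of 7 fibroblast markers 2 were higher, of 6 leukocyte markers 1 (Cd74) and of 7 skeletal muscle markers 1, Myh1 by 0.24, where 23.5% of all genes were called higher. Summed, the pericyte markers ran from 9.76 to 10.05 in myoepithelial arrays and from 9.91 to 10.46 in luminal arrays. Notch3 alone read 8.77 to 9.86 in luminal and 6.39 to 6.99 in myoepithelial arrays and made up much of the luminal sum. That sum therefore does not reflect the 5 markers called higher in myoepithelial cells. The endothelial markers summed to 9.30 to 10.46 in myoepithelial and 8.31 to 8.81 in luminal arrays. The part of all these markers in the myoepithelial values of the contraction genes was not tested.

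Knockout and wild type were compared next. In the mean of the 4 populations 1 of the 10 genes was called, Oxtr, lower in the knockout. This share is near that of all genes, of which 10.2% were called in either direction. The differences of the 10 genes ran from -0.44 to 0.38 with a median of -0.02, and 2 had an unadjusted p under 0.05. Oxtr fell by 0.44 ± 0.10 on the log2 scale, a 1.35-fold change (adjusted p = 0.0146). The fit took the 4 arrays of a mouse as nearly independent (correlation estimated at 0.0383). The standard errors and p of the mean thus rest mostly on the spread between arrays, not on that between the 2 mice of a genotype. For Oxtr, knockout mouse 1 read above knockout mouse 2 in all 4 populations. The wild-type mice had no such fixed order. Knockout and wild-type values of Oxtr did not overlap in myoepithelial cells, ductal progenitors and alveolar progenitors, and they overlapped in non-clonogenic luminal cells. With 2 arrays per genotype such separation says little, and its share over all genes was not counted. All 4 non-clonogenic and 3 of the 4 ductal arrays, both knockout ones among them, were not above the olfactory percentile. By population the difference was -0.34 ± 0.18 in myoepithelial cells, -0.14 ± 0.18 in non-clonogenic luminal cells, -0.55 ± 0.18 in ductal progenitors and -0.72 ± 0.18 in alveolar progenitors, and none of these was called alone (adjusted p = 0.433, 0.732, 0.0811 and 0.124). The second Oxtr probe set gave -0.12 ± 0.07 for the mean (adjusted p = 0.33), which was not called, and the mean of both probe sets gave -0.28 (adjusted p = 0.0289), which was. The call on the probe set used was lost without wild-type mouse 2 (-0.38, adjusted p = 0.0747) or knockout mouse 2 (-0.30, adjusted p = 0.186). Lmod1 had a mean difference of 0.20 ± 0.06 and missed the threshold (adjusted p = 0.063). With the mice of shared parents as a block, 2 of the 10 were called, Oxtr and Lmod1 (adjusted p = 0.0448).

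In myoepithelial cells the knockout call was Cnn1, 1 of the 10, where 1.01% of all genes were called. Its values were 10.44 and 10.26 in knockout and 11.03 and 11.19 in wild type. Cnn1 fell by 0.76 ± 0.14 on the log2 scale, or 1.70-fold (adjusted p = 0.0307). The gene has 1 probe set on the array. The other contraction genes had differences between -0.49 (Actg2, adjusted p = 0.244) and 0.19 (Lmod1) on the probe sets used. Myh11 (0.00 ± 0.17), Tpm2 (-0.03 ± 0.58), Mylk (-0.10 ± 0.14) and Acta2 (-0.17 ± 0.17) were not called. The further probe sets of these genes ran from -0.55 ± 0.40 (Tpm2) to 0.64 ± 0.23 (Myh11), neither of them called (adjusted p = 0.62 and 0.251 in the limma fit to all probe sets). Of the 19 further contractile genes 0 were called here by limma in either direction.

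The Cnn1 call was not stable to leaving out arrays. It was lost without the myoepithelial array of knockout mouse 1 (adjusted p = 0.0696), knockout mouse 2 (0.157) or wild-type mouse 2 (0.132), and without the whole of wild-type mouse 2 (0.144), knockout mouse 1 (0.352) or knockout mouse 2 (0.491). Leaving out any 1 alveolar array or either knockout ductal array, which do not enter the difference, left it at -0.76 with an adjusted p of 0.0531 to 0.057. Some markers of other cell types also differed between the genotypes, in both directions. The endothelial markers summed to 9.74 and 10.46 in knockout and 9.35 and 9.30 in wild-type myoepithelial arrays, with 1 of 6, Kdr, called. The leukocyte markers summed to 8.87 and 8.89 in knockout and 9.54 and 9.57 in wild type, with 1 of 6, Cd74, called lower (-1.19), and the pericyte markers to 9.95 and 10.05 in knockout and 9.76 and 9.93 in wild type, with 1 of 8, Mcam, called higher (0.80). The myoepithelial markers summed to 14.68 and 14.73 in knockout and 14.77 and 14.65 in wild type. The part of these shifts in the Cnn1 value was not tested.

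Whether the knockout acts differently on the contraction genes of myoepithelial and luminal cells was tested as the difference of the 2 effects. Cnn1 was the 1 gene of 10 called (0.684% of all genes), at -0.85 ± 0.16 (adjusted p = 0.0411). Its luminal values lay under the olfactory percentile in all 12 arrays. With mice of shared parents as a block the adjusted p was 0.0548, and with each mouse as a fixed block it was 0.0669. An F test of whether the effect differed among the 4 populations called 0 of the 10 genes by limma (0.667% of all genes), with 2 of them, Acta2 and Cnn1, at an unadjusted p under 0.05. The adjusted p of Cnn1 in that limma F test was 0.0884.

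In the luminal populations 0 of the 10 genes were called for the knockout by limma: in non-clonogenic luminal cells (2.06% of all genes called) 1 had an unadjusted p under 0.05, in ductal progenitors (7.44%) 2 and in alveolar progenitors (0.62%) 2. In ductal progenitors Acta2 read 7.33 and 7.41 in knockout and 8.14 and 7.76 in wild type, a difference of -0.58 ± 0.17 that missed the threshold (adjusted p = 0.0559). Wild-type mouse 1, the highest of these arrays, also stood apart in fibroblast markers, whose sum was 12.45 there against 10.99 in wild-type mouse 2 and 10.05 to 10.34 in knockout, with Dpt at 9.0 and Lum at 7.93. The difference between Gapdh probe sets at the 3′ end and in the middle of the transcript, a sign of RNA quality, was 0.60 and 0.39 in these wild-type arrays and 0.15 and 0.12 in the knockout ones, and for Actb it was 0.12 and 0.27 against 0.05 and 0.06. The part of these markers and of RNA quality in the Acta2 value was not tested. On the second Acta2 probe set the genotypes overlapped in ductal progenitors. It read 5.70 and 5.40 in knockout and 5.15 and 5.73 in wild type, with wild-type mouse 1 the lowest. These values were under the olfactory percentile. The mean of both Acta2 probe sets gave a difference of -0.23, which was not called. In alveolar progenitors Srf had a difference of 0.88 ± 0.35 (adjusted p = 0.429), and Tpm2 had 1.16 ± 0.58 (adjusted p = 0.581). The Tpm2 value was 0.22 without the alveolar array of knockout mouse 1 and 2.10 without that of knockout mouse 2.

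**Figure D5:**
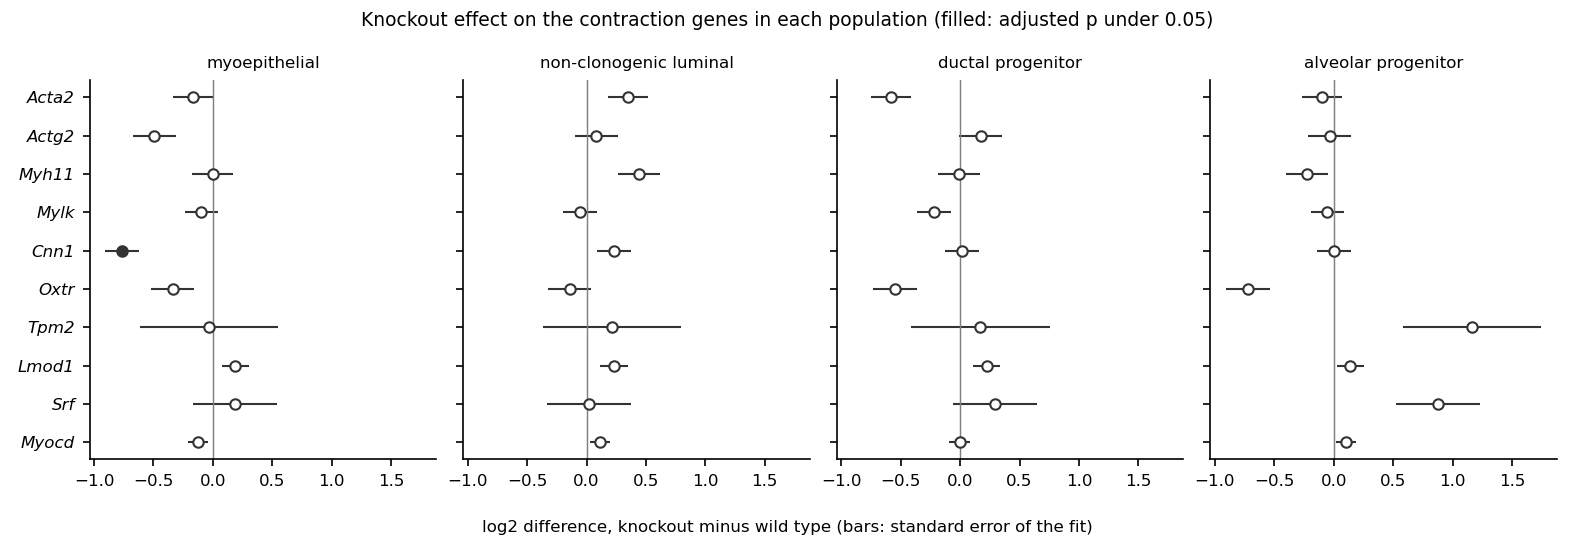
Log2 difference, knockout minus wild type, of the 10 genes (rows) in each of the 4 populations (panels), with the standard error of the fit as bars and filled points where the adjusted p is under 0.05. Cnn1 in myoepithelial cells (-0.76) is the filled point. Oxtr lies left of 0 in every panel, from -0.14 to -0.72, and the widest bars belong to Tpm2.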

How the data were processed

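Values are log2 expression per probe set as deposited by the authors for 16 arrays. The submitters' processing notes name RMA and limma without saying what each did or which version ran, and how the arrays were corrected for background or batch is not given in those notes or the labels. Per the labels' protocols, 15 ng of RNA was amplified and 8 µg of cDNA labelled with biotin. A supplied table names 28898 probe sets with 1 symbol, 551 with several and 15588 with none, and 104 are controls. Probe sets with 1 symbol were kept, and the one with the highest mean over all arrays stands for each gene, which gave 17097 genes.

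All arrays entered 1 limma model (version 3.58.1, R 4.3.3, statmod 1.5.0) with 8 group means, mouse as random block through duplicateCorrelation (estimated at 0.0383) and eBayes with a trend (8 residual, 3.90 prior degrees of freedom). Populations were compared as means of both genotypes. The procedure was tested on simulated data. The labels show that same-numbered mice of the 2 genotypes share parents, and their deviations from the group means correlated at -0.043 to 0.074 within populations. The members, lists and alternatives were chosen with earlier results of these data known. All 10 members are described. From each other list at most 4 called genes with the largest myoepithelial difference are named, and any other gene was picked after its values were seen. Promoters are RefSeq's (GRCm38.p6).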

Additional observations from a re-analysis of the deposited data

Results flagged for a closer look

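The knockout effect on Cnn1 differed between myoepithelial and luminal cells by a log2 value of -0.85 ± 0.16 (adjusted p = 0.0411, limma's test of the difference itself). The luminal values were near the floor in both genotypes. The call was lost with the parent pair as a block (adjusted p = 0.0548), with the mouse as a block (0.0669) and in 19 of 29 alternatives in all. The check was set up for this 1 result alone, with earlier results of these data known, and no other result was put to it. Groups of 2 arrays are too small for a test of single outlying arrays.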

How the results depend on the processing

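All 10 genes remained above luminal cells with no change of direction, with all 10 called under every alternative but 2: Myocd dropped out where genes under the lower quartile were not tested, and lost its call without knockout mouse 1, which left 9. Of 888 alternative values for 30 single-gene results, 812 kept direction and side of the threshold, 65 lost the call, 11 gained it and 0 changed sign. The calls of alveolar over ductal cells fell from 5 to 1 (Oxtr) with wild-type arrays only and ran from 3 to 5 when a mouse or an array was left out. The calls over non-clonogenic luminal cells ran from 4 to 7. The knockout calls are thin. For the mean of the 4 populations the count was 1, and 2 with no trend, with no mouse correlation, and with the parent pair as a replicate block, and 0 to 2 on leaving out. In myoepithelial cells it was 1, and 0 with array weights and with only those 4 arrays, and 0 to 2 on leaving out. There Actg2 was called without the myoepithelial array of wild-type mouse 1 (-0.86, adjusted p = 0.00364), and its difference was -0.13 without that of wild-type mouse 2 (adjusted p = 0.795). In ductal progenitors it was 0, and 1 with no trend (Acta2), and 0 to 1 on leaving out. In alveolar progenitors it was 0, and 1 with array weights (Oxtr, adjusted p = 0.0438), and 0 on leaving out. For the difference of the knockout effects it was 1, and 0 with array weights, with parent pair or mouse as a replicate block, and with all probe sets tested (added after the data were seen), and 0 to 2 on leaving out. The F test gave 0, and 0 to 1 on leaving out. Over its alternatives the adjusted p of Cnn1 ran from 0.0154 to 0.491 in myoepithelial cells and from 0.0206 to 0.515 for the difference of effects, and that of Oxtr in the mean from 0.00929 to 0.186. The causes were not tested. Where a mouse was left out, the remaining mouse of that genotype was assumed to vary like the other groups. Array signal near the floor limits the luminal values of Actg2, Mylk, Cnn1 and Myocd.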
